A study of Rattus norvegicus with 12 samples.

Results

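The interferon-induced effector genes Gbp4, Ifit2, Mx1 and Apol3 were followed through 12 RNA-sequencing libraries of primary rat oligodendrocyte precursor cells (OPCs). The 4 genes were picked out by their positions in the annotation, and they were proposed with earlier results of these libraries known, so that their all having moved is not a blind outcome. They are 4 of the 30562 annotated genes in the count tables and 4 of the 13348 genes with enough reads to be tested. The cells came from cortices of wild-type Sprague-Dawley pups of both sexes, pooled, at postnatal days 0 to 2, were shaken off mixed glial cultures and were switched to differentiating medium without growth factors when treatment began. There were 3 libraries in each of 4 groups. CTL received neither cytokines nor galinex, GAL received 10 nM galinex, CTK-2 received a cocktail of IFN-γ, IL-1β and TNF-α in which each cytokine stood at 2 ng/mL, and CTK2+GAL received cocktail and galinex. Galinex (an agonist of the receptor GPR17) or its solvent DMSO was added 6 h after the cytokines, and RNA was taken 24 h later. The 3 cytokines were given only together, so a change cannot be assigned to any of them. The study's general statistics refer to independent experiments, but the sources used here do not state that the sequenced replicates were separate cultures, so p-values measure the spread between these libraries, which may be technical.

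Interferons bind receptors that activate JAK kinases and STAT transcription factors, and the target genes of this pathway restrict viruses and intracellular bacteria. IFN-γ acts mainly at promoter elements called GAS, while type I interferons act mainly at elements called ISRE. IRF1, itself induced by IFN-γ, also binds ISRE-like sequences. Gbp4 encodes a guanylate-binding protein, one of a family of large GTPases that act on vacuoles and membranes of intracellular pathogens. Mx1 encodes a dynamin-like GTPase that blocks replication of influenza and other viruses. Ifit2 encodes a tetratricopeptide repeat protein of a family that binds RNA and limits translation of viral RNA. Apol3 belongs to the apolipoprotein L family, whose members act on membranes, and human APOL3 has been described as acting on cytosolic bacteria. Oligodendrocyte lineage cells carry receptors for IFN-γ, and they are known to respond to it in inflammatory demyelination.

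The 4 genes lay, in the rat genome build mRatBN7.2, on 4 chromosomes. Gbp4 (ENSRNOG00000028768) spanned chr2:231305244-231318879 on the plus strand with 11 exon blocks and 2560 exonic bases. Ifit2 (ENSRNOG00000036604) spanned chr1:232102570-232108635 on the plus strand with 2 exon blocks and 3409 exonic bases. Mx1 (ENSRNOG00000001959) spanned chr11:36799660-36823507 on the minus strand with 14 exon blocks and 3429 exonic bases. Apol3 (ENSRNOG00000042771) spanned chr7:109288725-109297723 on the plus strand with 4 exon blocks and 1937 exonic bases. None of the 4 overlapped another annotated gene on either strand, so reads of another annotated gene do not share their span. Pairs that mapped to several places were not counted, so reads shared with near-identical family members are missing from these values.

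Because the 4 genes moved together, the sequence before their start sites is shown. RefSeq promoter windows of the build GRCr8, which is not the build of the counts, were found for 3 of the 4 genes, the Apol3 locus being named Apol3l1 there, and Ifit2 was without an entry. The windows were searched on both strands for the GAS motif TTCNNNGAA, for the ISRE core GAAANNGAA and for the NF-kB motif, and capitals mark a match. Each line runs 5′ to 3′ on the gene's strand from 250 bases before the start, and the line of Apol3 goes 11 bases past it to show the whole match. The lines cover chr2:233978236-233978485 on the plus strand, chr11:50294607-50294856 on the minus strand and chr7:111169057-111169317 on the plus strand.
Gbp4: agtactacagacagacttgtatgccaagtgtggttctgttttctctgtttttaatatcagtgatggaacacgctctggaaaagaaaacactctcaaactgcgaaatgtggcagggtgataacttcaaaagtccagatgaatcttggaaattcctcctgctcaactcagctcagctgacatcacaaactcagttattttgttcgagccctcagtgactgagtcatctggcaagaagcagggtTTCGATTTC
Mx1: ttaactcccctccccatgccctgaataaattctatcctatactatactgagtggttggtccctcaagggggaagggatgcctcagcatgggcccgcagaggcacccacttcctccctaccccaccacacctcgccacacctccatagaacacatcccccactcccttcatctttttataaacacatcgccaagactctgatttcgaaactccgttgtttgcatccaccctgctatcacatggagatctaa
Apol3: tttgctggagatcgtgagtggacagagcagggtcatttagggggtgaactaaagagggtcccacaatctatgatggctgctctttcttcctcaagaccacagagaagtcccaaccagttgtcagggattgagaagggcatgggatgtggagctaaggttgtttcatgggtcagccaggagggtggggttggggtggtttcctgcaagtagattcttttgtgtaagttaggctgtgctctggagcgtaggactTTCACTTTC
In Gbp4 the ISRE core, read on the opposite strand, filled bases -9 to -1 directly before the start. In Apol3 it filled bases 3 to 11 after the start, also on the opposite strand. The Mx1 window held none of the 3 motifs in these spellings. Over all 33469 RefSeq windows of 300 bases, 9.71% held the ISRE core, 8.87% the GAS motif and 5.02% the NF-kB motif, so a match of this length is common and is given as a description.

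The libraries held 2600797 to 8978185 counted read pairs, the lowest being GAL replicate 1. The labelled cell type was checked with the oligodendrocyte lineage markers Pdgfra, Cspg4, Mag and Mog, which were detected in all 12 libraries. Levels are given in CPM (counts scaled to a common library size with TMM factors), and Pdgfra, the platelet-derived growth factor receptor of OPCs, ran from 381 to 754 CPM. The 4 nameable microglial markers (P2ry12, Csf1r, C1qc and Ptprc) summed to 2.24 to 9.73 CPM in CTL, 3.10 to 10.5 CPM in GAL, 18.5 to 24.3 CPM in CTK-2 and 19.6 to 20.8 CPM in CTK2+GAL. They are 4 of 13 listed markers, and only genes that the study had called in CTK-2 versus CTL could be named. That their sum changed with cytokines therefore follows from this choice and is no measure of microglial content. Ptprc was at 0 in CTL replicate 2 and in GAL replicates 1 and 2. In bulk RNA, more cells of a type and more RNA per cell cannot be told apart, and the part of microglial cells in the values below was not tested. CTL replicate 3 and GAL replicate 3 stood apart from the other libraries without cytokines. Of the 53 genes of interferon lists that could be named, 44 had their highest CTL level in CTL replicate 3, or 83.0%, against 34.8% of all tested genes. In GAL replicate 3 the same held for 46 of 53, or 86.8%, against 33.6% of all tested genes. The 53 genes, too, could be named only because the study had called them in CTK-2 versus CTL. Both shares may therefore follow from that choice, and other genes that changed with cytokines were not set beside them. CTL replicate 3 and GAL replicate 3 were also the libraries with the highest summed microglial markers of their groups, at 9.73 and 10.5 CPM, which may likewise follow from the choice of nameable markers. The cytokine responses are therefore given with and without them.

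In libraries without cytokines the 4 effector genes were close to silent. Gbp4 had 0, 1 and 5 counts in CTL replicates 1 to 3 and 0, 0 and 4 counts in GAL replicates 1 to 3. Ifit2 had 1, 0 and 4 counts in CTL and 0, 0 and 3 counts in GAL. Mx1 had 2, 1 and 36 counts in CTL and 3, 2 and 24 counts in GAL. In these 3 genes the highest count of each group was in replicate 3. Apol3, the apolipoprotein L gene, had 0 counts in all 6 libraries, which allows up to 0.176 CPM over CTL and 0.209 CPM over GAL at 3 counts per group.

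With cytokines all 4 genes were well covered, from 79 counts of Apol3 to 2467 of Mx1 in a library. Gbp4 had 243, 281 and 272 counts in CTK-2 and 266, 327 and 477 in CTK2+GAL. Ifit2 had 278, 313 and 322 counts in CTK-2 and 284, 364 and 493 in CTK2+GAL. Mx1 had 1129, 1527 and 1440 counts in CTK-2 and 1370, 1663 and 2467 in CTK2+GAL. The last value of each of these CTK2+GAL series comes from the deepest library of the 12. Apol3 had 79, 92 and 81 counts in CTK-2 and 85, 93 and 155 in CTK2+GAL. For each gene every library with cytokines was above every library without them.

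**Figure D1:**
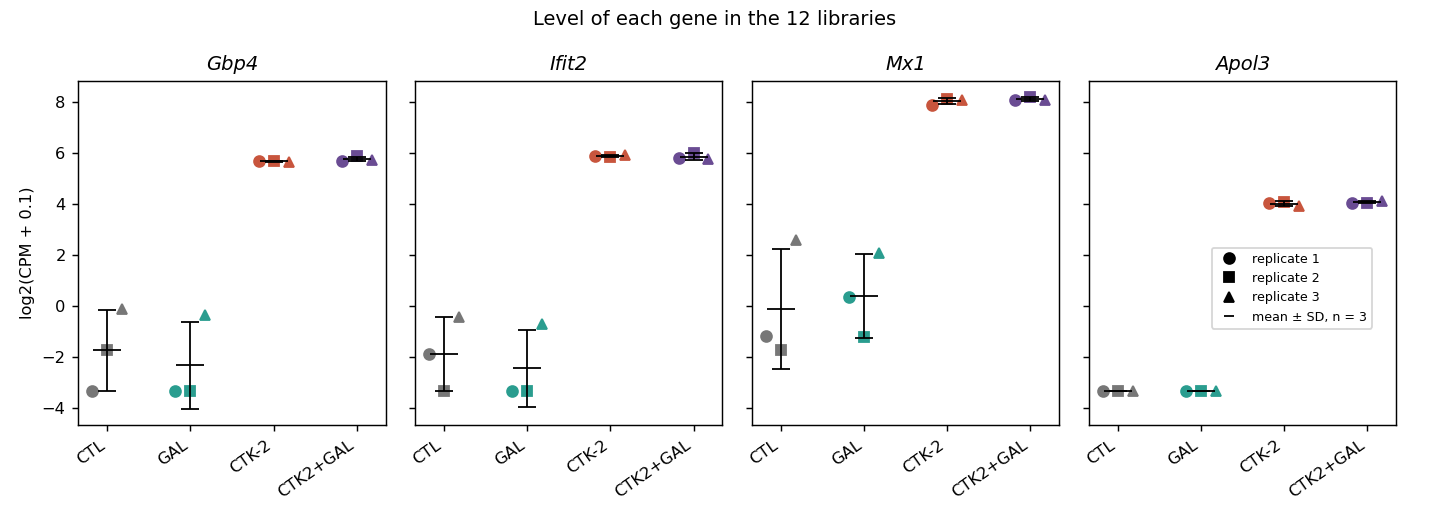
Level of Gbp4, Ifit2, Mx1 and Apol3 as log2(CPM + 0.1) (vertical axis) in the 4 groups (horizontal axis), with 1 symbol per library and the mean ± SD over 3 libraries in black. All 6 libraries with cytokines lie above all 6 without, and replicate 3 is the highest library of CTL and of GAL for Gbp4, Ifit2 and Mx1.

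The cytokine cocktail raised all 4 effector genes strongly. The CTK-2 libraries of Gbp4 lay at 50.8, 51.1 and 50.4 CPM, with a mean of 50.8 ± 0.337 CPM against 0.336 ± 0.423 CPM in CTL (SD, n = 3). This CTK-2 spread, 0.665% of the mean, was below the 6.15% that counting alone gives, and so understates the error of Gbp4. The log2 fold change was 7.08 with a standard error of 0.29, or 135-fold (adjusted p = 2.0e-12, edgeR quasi-likelihood test). Its counts, 796 against 6, gave a ratio of 144 with a 95% counting interval from 65.8 to 393. The interval of the fit, from 88.9 to 206, is narrower and understates the error. Ifit2 rose from 0.274 ± 0.336 to 58.2 ± 1.39 CPM, a log2 fold change of 7.53 with a standard error of 0.28, or 184-fold (edgeR adjusted p = 7.1e-13). Its count ratio was 198 with a 95% counting interval from 84.6 to 612, again wider than that of the fit, from 123 to 275. Mx1 rose from 2.13 ± 3.21 to 260.1 ± 21.5 CPM, a log2 fold change of 6.82 with a standard error of 0.33, or 113-fold (edgeR adjusted p = 1.4e-11). Apol3 rose from 0 counts to 16.1 ± 0.936 CPM which is at least 91.1-fold above a level of 3 counts over the CTL group (edgeR adjusted p = 8.4e-10). All 4 genes were thus called higher, where 11.5% of all tested genes were, and in all 4 every CTK-2 library was above every CTL library, which held for 25.2% of all tested genes. The 4 genes were picked as interferon-induced and the cocktail included IFN-γ, so these counts are no independent result. Which cytokine raised the genes was not tested.

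The size of these folds depended on CTL replicate 3. Without CTL and GAL replicates 3, an alternative chosen after the values were seen, 3 counts of Mx1 were left in CTL, and the ratio of CTK-2 to CTL was 944 with a 95% counting interval from 323 to 4580.1. The fitted log2 fold change of Mx1 was then 9.77. Gbp4 was left with 1 count in CTL and a ratio of 550.4 with an interval from 98.5 to 21768, and Ifit2 with 1 count and a ratio of 631 with an interval from 113 to 24964. Apol3 was at least 58.1-fold higher. All 4 genes were still called in edgeR without these libraries, with the largest adjusted p at 1.3e-14 for Apol3. With a prior count of 2 in the fit, which pulls folds against low counts towards 0, the log2 fold changes were 6.17 for Gbp4 and 6.49 for Ifit2.

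With galinex on both sides the 4 genes rose again. Gbp4 rose from 0.229 ± 0.397 CPM in GAL to 54.2 ± 3.38 CPM with both treatments (SD, n = 3). Its log2 fold change was 7.49 with a standard error of 0.31 (edgeR adjusted p = 2.7e-12). The ratio of its counts was 194 with a 95% counting interval from 75.6 to 714, wider than that of the fit, from 115 to 283. Ifit2 had 3 counts in GAL and 1141 in CTK2+GAL, a ratio of 276 with a 95% counting interval from 94.2 to 1339.9 (edgeR adjusted p = 1.7e-12). Mx1 rose from 1.87 ± 1.99 to 278 ± 15.1 CPM, a log2 fold change of 7.09 with a standard error of 0.35 (edgeR adjusted p = 1.8e-11). Apol3 was at least 80.5-fold higher in CTK2+GAL than the 3 counts allowed over GAL (edgeR adjusted p = 1.1e-09). All 4 were called higher, against 11.7% of tested genes, and every CTK2+GAL library was above every GAL library in each, against 25.5% of tested genes. Without replicates 3 of CTL and GAL, Gbp4 and Ifit2 had 0 counts in the other GAL libraries and were at least 154-fold and 164-fold higher. Mx1 then had 5 counts in GAL and a ratio of 475 with an interval from 203 to 1463, and Apol3 was at least 47.9-fold higher. With a prior count of 2 the log2 fold changes of all GAL libraries were 6.42 for Gbp4 and 6.68 for Ifit2.

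No change of the 4 genes with galinex alone was detectable in these libraries. In GAL versus CTL the log2 difference of Mx1 was -0.18 with a 95% interval from -1.83 to 1.47. It was -0.32 for Gbp4 (-2.44 to 1.80) and -0.45 for Ifit2 (-2.70 to 1.79), and the GAL and CTL libraries overlapped in each. None of the 3 was called in edgeR, where the unadjusted p was 0.822, 0.756 and 0.677. Apol3 had 0 counts in both groups and gives no fold. The wide intervals come with the 3 to 39 counts that each group held in all and, for Mx1, with the spread between libraries. The count ratio of Mx1 was 0.880 with a 95% counting interval from 0.525 to 1.46. That of the fit was wider, from 0.282 to 2.77. The sign of the log2 difference turned without CTL replicate 3, to 2.77 for Mx1, 1.39 for Gbp4 and 1.01 for Ifit2. It also turned without GAL replicate 2, to 0.48 for Mx1, 0.41 for Gbp4 and 0.26 for Ifit2, and for Mx1 without both replicates 3, to 1.02, where Gbp4 and Ifit2 with 1 count left in CTL and 0 in GAL give no fold. The share of tested genes called in this comparison was 0%, with 574 of 13348 at an unadjusted p under 0.05, and DESeq2 also called 0.

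Galinex added to the cytokines left all 4 genes within narrow bounds. In CTK2+GAL versus CTK-2 the log2 difference was 0.09 for Gbp4 (95% interval from -0.15 to 0.34), so an increase above 1.26-fold or a fall below 0.900 of the CTK-2 level lies outside the interval. It was -0.01 for Ifit2 (-0.23 to 0.22), 0.10 for Mx1 (-0.28 to 0.47) and 0.06 for Apol3 (-0.23 to 0.35), and none was called in edgeR. The sign for Ifit2 turned with small changes of the fit, for example to 0.02 without CTK2+GAL replicate 1. The libraries of Ifit2, Mx1 and Apol3 overlapped between these groups. Those of Gbp4 did not, with 51.7, 58.1 and 52.8 CPM in CTK2+GAL against 50.4 to 51.1 CPM in CTK-2, which is a pattern that 5.72% of all tested genes showed. The share of tested genes called was 0%, with 545 of 13348 at an unadjusted p under 0.05 in edgeR, and DESeq2 also called 0.

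The response to the cytokines was not shown to differ with galinex. The interaction, the log2 fold change of the cytokines with galinex minus that without, was 0.41 for Gbp4 (95% interval from -1.75 to 2.57), 0.45 for Ifit2 (-1.81 to 2.70) and 0.27 for Mx1 (-1.42 to 1.97), and none was called in edgeR. The share of tested genes called was 0%, with 376 of 13348 at an unadjusted p under 0.05, and DESeq2 also called 0. Without CTL replicate 3 the values turned to -1.30, -1.02 and -2.67, so the sign of the interaction rests on counts in the libraries without cytokines.

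**Figure D2:**
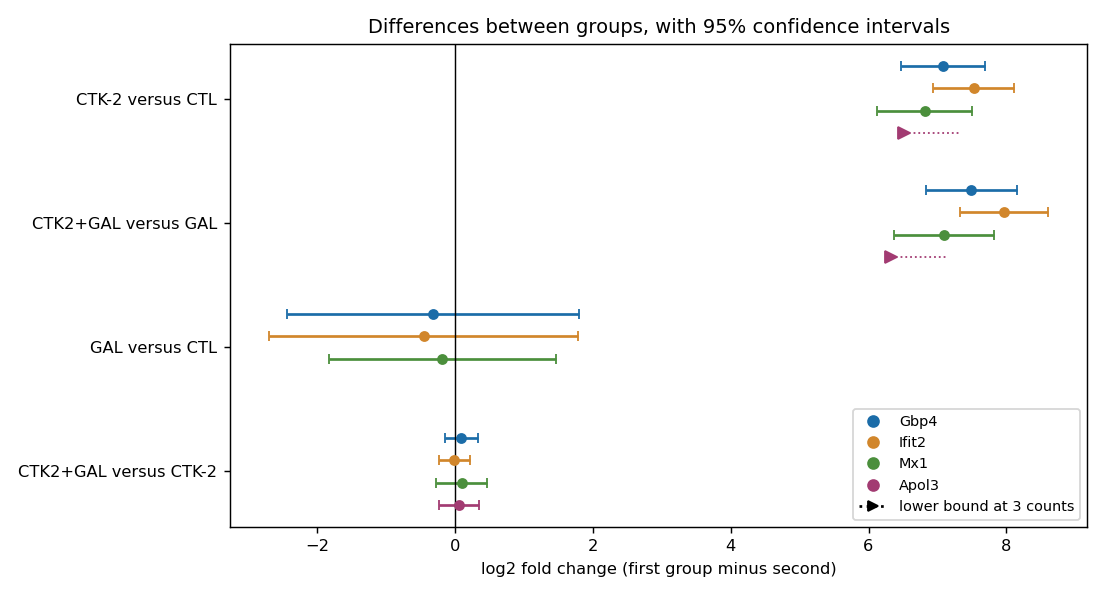
Log2 fold change (horizontal axis, first group minus second) of the 4 genes in 4 comparisons (vertical axis), as points with 95% confidence intervals over 3 libraries per group, with arrowheads for Apol3 where only a lower bound at 3 counts exists. The cytokine comparisons lie between 6.82 and 7.97 for Gbp4, Ifit2 and Mx1, and the intervals of both galinex comparisons cross 0. In the cytokine comparisons the intervals drawn for Gbp4 and Ifit2 are narrower than their counting intervals.

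The partial activity of the replicate 3 controls differed in size between the genes by no more than the counts can resolve. In CTL replicate 3 the level of Mx1 was 2.24% of the CTK-2 mean, with a 95% counting interval from 1.57% to 3.11%. Gbp4 reached 1.60% (0.519% to 3.73%) and Ifit2 1.11% (0.303% to 2.85%), and Apol3 with 0 counts was below 3.72%. In GAL replicate 3 the levels were 1.59% for Mx1 (1.02% to 2.36%), 1.35% for Gbp4 (0.369% to 3.47%) and 0.886% for Ifit2 (0.183% to 2.59%). In the other libraries Mx1, the gene with the deepest counts, lay between 0.0764% and 0.447% of the CTK-2 mean, and the intervals of CTL replicates 1 and 2 ended at 0.478% and 0.426%, below that of CTL replicate 3. The interval of GAL replicate 1, the shallowest library, reached 1.31% and overlapped that of GAL replicate 3. For Gbp4 and Ifit2 the intervals of all CTL libraries overlapped, so that the difference between replicates was not resolved in these genes alone. Family members in the same library ranged widely. Mx2, the paralog next to Mx1, was at 23.6% of its CTK-2 mean in CTL replicate 3 (21.6% to 25.7%), Ifit1 at 7.50% (4.29% to 12.2%) and Gbp2 at 3.21% (2.32% to 4.32%), while Gbp5 was at 0.947% (0.648% to 1.34%), Gbp3 at 0.553% (0.0670% to 2.00%) and Apol11a at 0. Mx2 also had 313 counts in CTL replicates 1 and 2 together, beside 512 in CTL replicate 3, so part of its share was present in the other CTL libraries. The intervals of Gbp2, Gbp3 and Gbp5 overlapped that of Gbp4. Intervals cover counting error only.

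**Figure D3:**
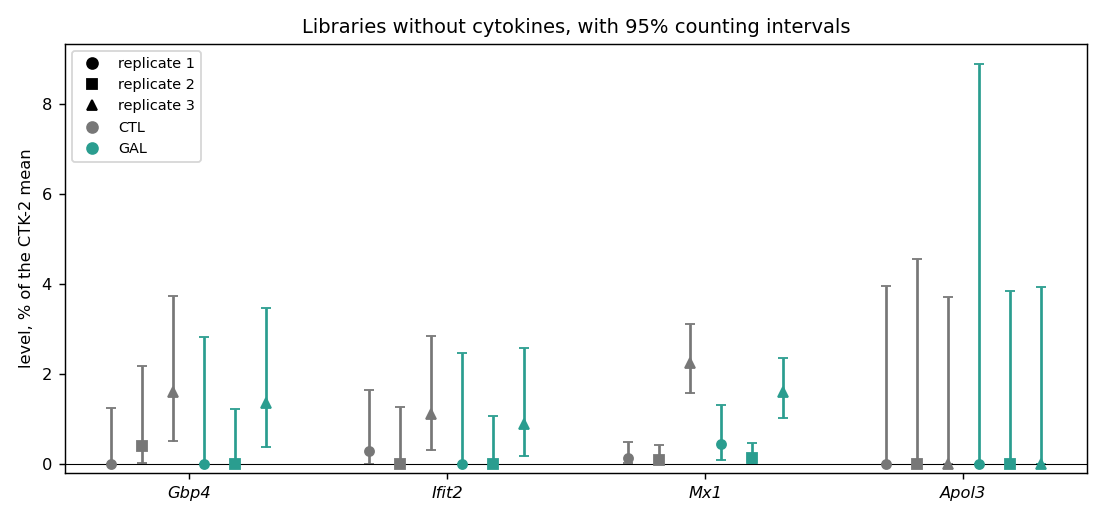
Level of the 4 genes in each of the 6 libraries without cytokines, as percent of the CTK-2 mean (vertical axis), with 95% counting intervals. Mx1 stands at 2.24% in CTL replicate 3 and 1.59% in GAL replicate 3 and below 0.5% in the other 4 libraries, and Apol3 is at 0 in all.

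Per kilobase of exon length, Mx1 was the most abundant of the 4 transcripts after cytokines and Apol3 the least. Mx1 stood at 75.9 ± 6.26 CPM per kb in CTK-2 and 81.2 ± 4.40 in CTK2+GAL (SD, n = 3), above 94.7% and 95.1% of the tested genes on this scale. Gbp4 stood at 19.8 ± 0.132 and 21.2 ± 1.32 CPM per kb, Ifit2 at 17.1 ± 0.409 and 17.1 ± 1.65, and Apol3 at 8.30 ± 0.483 and 8.64 ± 0.195. Gbp4 was thus above 72.2% of tested genes in CTK-2, Ifit2 above 67.6% and Apol3 above 45.7%. The order was the same in both groups, and no neighbours in it overlapped, the closest being Gbp4 and Ifit2, at their nearest with 20.2 against 19.0 CPM per kb in CTK2+GAL and 19.7 against 17.5 in CTK-2. On CPM without length Ifit2 came before Gbp4, at 58.2 against 50.8 CPM in CTK-2.

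The ratios between the 4 genes were steady across the 6 libraries with cytokines. The level of Mx1 per kb was 3.47 to 4.06 times that of Gbp4, the ratio of Gbp4 to Ifit2 was 1.12 to 1.29, and Gbp4 was 2.31 to 2.66 times Apol3. From the lowest to the highest of the 6 libraries, CPM spread 1.14-fold in Apol3, 1.15-fold in Gbp4, 1.18-fold in Ifit2 and 1.25-fold in Mx1. The coefficient of variation was 5.45% for Gbp4, where counting alone gives 5.79%, 6.28% for Ifit2 against 5.52%, and 4.46% for Apol3 against 10.4%. For Mx1, at 7.18% against 2.55%, the spread was well above counting error. In Gbp4 and Apol3 the libraries with cytokines were thus no more different from each other than their read numbers allow.

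**Figure D4:**
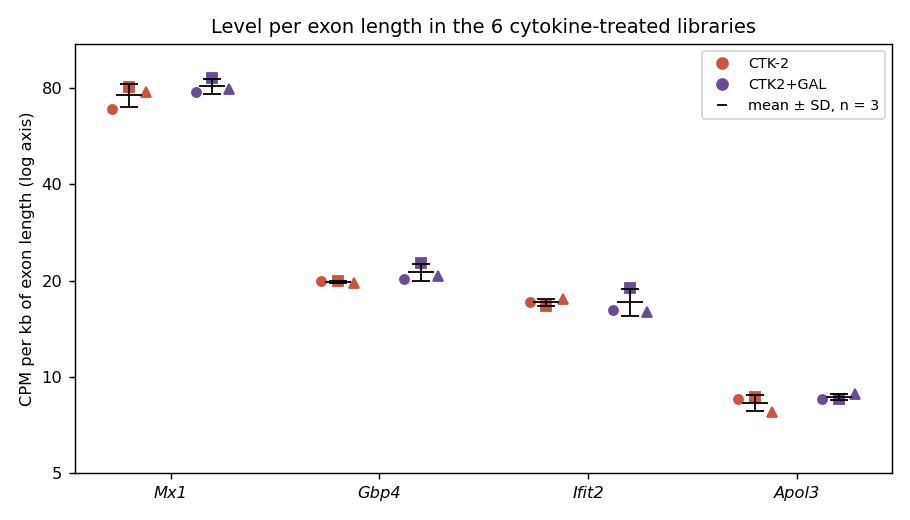
Level in CPM per kb of exon length (log axis) of Mx1, Gbp4, Ifit2 and Apol3 in the 6 libraries with cytokines, with 1 symbol per library and the mean ± SD of each group over 3 libraries. The order from Mx1 (75.9 and 81.2) to Apol3 (8.30 and 8.64) is the same in CTK-2 and CTK2+GAL.

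Other genes of the interferon pathway were read from lists by role. Symbols could be given only to genes that the study itself had called in CTK-2 versus CTL, so the share of called genes in each list follows from that choice and is no independent evidence, and list members without a symbol were not examined. The medians below were taken over the same chosen genes. Their distance from the median of all tested genes is therefore no independent evidence either. Of 107 listed genes 53 were named and tested, and all 53 were called higher in CTK-2, with a median log2 fold change of 5.08 against 0.00 over all tested genes. With the 3 genes without counts in CTL set at their lower bound the median was 4.86. Without CTL and GAL replicates 3 all 53 were still called higher, with a median of 7.70, or 6.32 with the 15 genes then at 0 counts in CTL set at their lower bound. DESeq2 called 43 of them higher and gave no adjusted p to the other 10.

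Among the interferon-inducible GTPases 8 of 17 were named, with a median log2 fold change of 6.80, or 9.64 without CTL and GAL replicates 3 (9.15 with genes at 0 counts set at their bound). Beside Gbp4 and Mx1 they included Gbp3, whose 2 counts in CTL and 916 in CTK-2 gave a ratio of 497 with a 95% counting interval from 137 to 4109. They also held Gbp5 with a log2 fold change of 8.13 (edgeR adjusted p = 3.8e-11) and Gbp2 with 6.32 (edgeR adjusted p = 1.1e-09). Of their CTL counts 32 of 33 and 43 of 46 were in replicate 3, and without CTL and GAL replicates 3 the ratios were 5952 (1068 to 235138) for Gbp5 and 786 (269 to 3812) for Gbp2, while Gbp3, then without any CTL count, stood at least 211-fold higher. Mx2 started from 47.2 ± 31.5 CPM in CTL and reached 352 ± 21.0 CPM after cytokines (SD, n = 3), so that its log2 fold change was 2.88 (edgeR adjusted p = 1.2e-06). Without those libraries it was 3.60. Of the IFIT and IFITM genes 4 of 9 were named, and Ifit1 had a log2 fold change of 5.17, with all 16 CTL counts in replicate 3, and was at least 125-fold higher without it. Ifitm3 with 3 counts in CTL had a ratio of 47.7 (95% counting interval from 16.0 to 234), and Ifit3 with 2 counts one of 40.1 (10.7 to 338). Without CTL and GAL replicates 3 Ifitm3 was at least 30.4-fold higher and Ifit3 had a ratio of 51.2 (8.90 to 2048). Of the APOL family 3 of 12 were named. Apol9a rose from 8 counts in CTL, all in replicate 3, to 28.2 ± 0.371 CPM and was at least 102-fold higher without that library, and Apol11a from 0 counts in CTL to 4.87 ± 0.707 CPM, at least 27.5-fold above 3 counts over the group, or 17.5-fold without replicate 3.

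Among enzymes that make or act through 2-5A (OAS and RNase L) 5 of 15 were named, with Oas1a at a log2 fold change of 6.77, Oasl2 at 5.73 and Oas1k at 3.76. All CTL counts of Oas1a and Oasl2 were in replicate 3, and without it they were at least 242-fold and 387-fold higher in CTK-2, and Oas1k was at 5.20. Other antiviral effectors gave 19 named genes of 22 and a median of 4.37, or 7.30 without CTL and GAL replicates 3 (6.32 with genes at 0 counts set at their bound), led by p by Herc6, an ISG15 ligase (6.69, edgeR adjusted p = 1.3e-11), Rsad2, the enzyme viperin (6.48), and Ifi44l (5.98). Without CTL and GAL replicates 3 Rsad2 and Ifi44l were left with 0 counts in CTL, Rsad2 being at least 159-fold higher in CTK-2, and Herc6 with 2 counts had a ratio of 177 (95% counting interval from 48.7 to 1463). Cytosolic and endosomal sensors of nucleic acids gave 5 of 8, with Dhx58 at 4.94, Ddx58, which encodes RIG-I, at 4.27 and Ifih1, which encodes MDA5, at 3.51. Without those libraries they were at 6.51, 5.81 and 5.24. The induced regulators were all named, 5 of 5, with Socs1, an inhibitor of JAK kinases, at 4.49, Usp18, which removes ISG15, at 5.77 and Irf7 at 5.35 from 4 counts in CTL. Without those libraries Socs1 was at 4.58, while Usp18 and Irf7 with 1 count each had ratios of 811 (145 to 32065) and 113 (20.1 to 4506). Receptors and signalling gave 4 of 10, with Jak1 at 0.66, Jak2 at 0.98, the receptor subunit Ifngr2 at 0.92 and the transcription factor Stat2, named after its value was seen, at 3.07 (edgeR adjusted p = 1.0e-05). Without CTL and GAL replicates 3 Stat2 was at 4.07, Jak1 at 0.66, Jak2 at 0.99 and Ifngr2 at 0.95. Of 9 interferon ligand genes none had a symbol, so interferon production by the cells was not examined. All 53 were also called higher in CTK2+GAL versus GAL, and none was called in CTK2+GAL versus CTK-2, where their log2 differences ran from -0.22 to 0.50 around a median of 0.04.

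**Figure D5:**
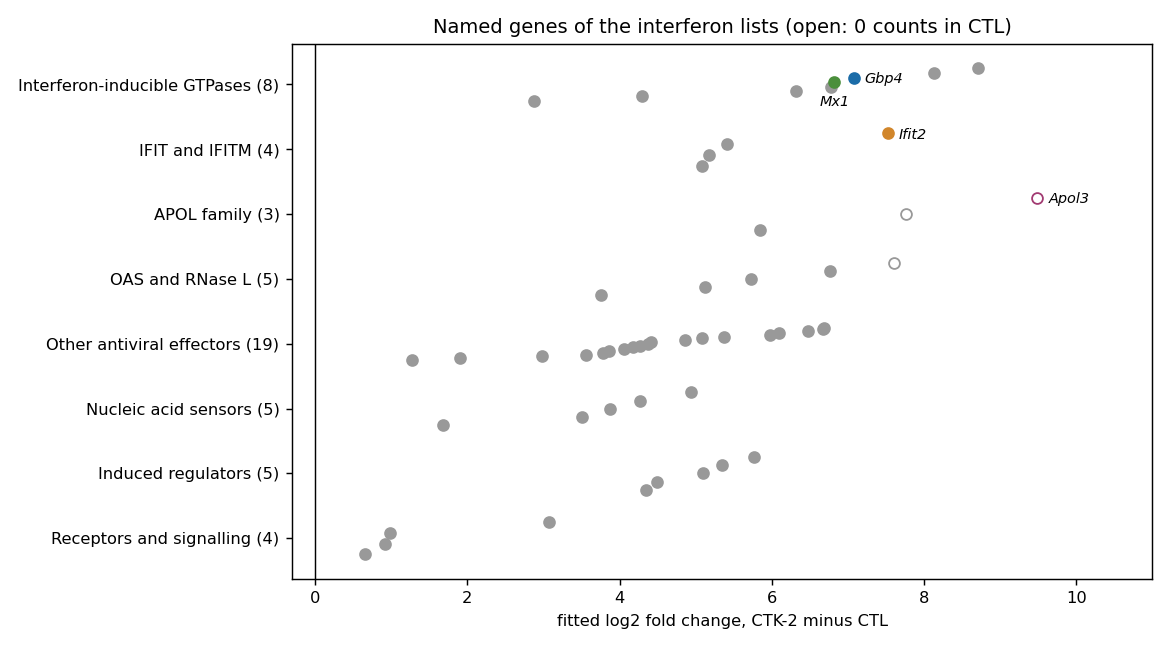
Fitted log2 fold change of CTK-2 minus CTL (horizontal axis) for the 53 named genes of 8 interferon lists (vertical axis, number of named genes in brackets), with the 4 effector genes labelled and open circles for genes with 0 counts in CTL, whose position depends on the prior count. All lie above 0, the lowest being Jak1 at 0.66.

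Neighbours on the chromosome were examined within 100 kb of each gene. Over all tested genes 11.5% were called higher in CTK-2 versus CTL, and 773 of 13348 were called lower. Around Gbp4 5 genes were annotated, and all 5 were tested and called higher in CTK-2, among them Gbp2, Gbp5 and LOC685067, and the other 2 had no symbol. Around Ifit2 4 of 7 genes were tested, of which Ifit1 and Ifit3 were called higher and Lipa, which encodes lysosomal acid lipase, was called lower. Around Mx1 2 of 4 were tested and Mx2 was called higher, and around Apol3 3 of 8 were tested with Apol11a and Myh9, a non-muscle myosin, called higher. Family members lie side by side here and share sequence, so they are not independent of each other.

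The pattern over the 12 libraries was shared by many genes. Pearson's r of log2(CPM + 1) between pairs of the 4 genes ran from 0.979 (Mx1 and Apol3) to 0.999 (Gbp4 and Ifit2), and it mainly reflects the step between libraries with and without cytokines. An r of at least 0.99 was reached by 182 genes with Gbp4, 183 with Ifit2, 134 with Mx1 and 130 with Apol3. The nearest named genes were Cxcl10 and Cxcl9, which encode chemokines that attract T cells, to Gbp4 or Ifit2, Stat3, Usp18 and RT1-M3-1 to Mx1, and Hpgd to Apol3, each at 0.999. With log2(CPM + 0.1) in place of it, 0 of the 3 nearest genes of Gbp4, Ifit2 and Mx1 and 2 of those of Apol3 stayed among the nearest. In the 6 libraries without cytokines, where Apol3 is constant at 0, the highest mean r with the other 3 genes was 0.964, and Cxcl10 was the one named gene among the 5 nearest. With log2(CPM + 0.1) 0 of these 5 stayed among the nearest.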

How the data were processed

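RNA was sequenced in 12 libraries, 3 in each of 4 groups. The authors deposited whole-number counts of read pairs per gene, neither normalized nor filtered. The authors used FastQC and STAR, and per the file headers featureCounts 2.0.0 counted reversely stranded pairs with both ends mapped on exons of Ensembl release 112 for mRatBN7.2, without marked duplicates, chimeric or multiply mapped pairs. Symbols other than those of the 4 genes came from a numeric match of the study's list of changed genes to the counts (1780 of 1786 entries, with 99.8% of 1763 pairs on the same chromosome in both annotations).

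The quasi-likelihood test of edgeR 4.0.16 (R 4.3.3, TMM, 1 mean per group over all 12 libraries) was run on genes whose mean count reached 5. Benjamini-Hochberg adjustment covered all tested genes. A call needed an adjusted p up to 0.05 together with a log2 fold change of 0.59 or more in size (for the interaction the adjusted p alone). Standard errors are the size of the log2 fold change over the root of F, which can understate the error against few counts. Against 0 counts a fold is a lower bound at 3 counts over the group, and against 1 to 3 counts a ratio with its exact 95% interval. The script was tested on simulated data. Members, lists and tests were chosen with earlier results of these data known. Named genes were the 4 members, their family members, up to 3 genes per list with the smallest p in CTK-2 versus CTL, and the nearest by correlation. LOC685067, Lipa, Myh9 and Stat2 were named after their values were seen.

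Deviations of CTL and GAL libraries with the same replicate number correlated (r = 0.488, 0.526 and 0.83). CTL replicate 1 correlated slightly more with a GAL library of another number (r = 0.525). The fit with the block was also read for GAL versus CTL, the pairing being a hint from the data and not the design. Deviations of same-numbered libraries of other groups did not correlate (r from -0.0487 to 0.116). Alternatives were DESeq2 1.42.0, its size factors, total counts, other filters, a replicate block, a prior count of 2, fits of 2 groups and each replicate left out.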

Additional observations from a re-analysis of the deposited data

How the results depend on the processing

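All calls of the 4 genes in both cytokine comparisons held under each of the 16 alternatives per gene. Log2 fold changes of CTK-2 versus CTL then ran from 6.17 to 8.79 for Gbp4, 6.49 to 8.99 for Ifit2, 6.30 to 9.77 for Mx1 and 5.52 to 9.54 for Apol3, with the largest adjusted p at 1.1e-07, and the values of Apol3 depend on the prior count. With the replicate block they were 7.08, 7.52, 6.82 and 9.49. In GAL versus CTL, where a pairing by number is only a hint, the block gave -0.33, -0.46 and -0.20 without Apol3, and it changed no call. No galinex or interaction value was called in any alternative. Signs were not stable in GAL versus CTL, in the interaction, and for Ifit2 in CTK2+GAL versus CTK-2. In that last comparison Gbp4, Mx1 and Apol3 stayed above 0 in every alternative. In GAL versus CTL, leaving out 1 library gave -4.06 to 1.39 for Gbp4, -3.81 to 1.01 for Ifit2 and -1.93 to 2.77 for Mx1. For the interaction it gave -1.30 to 4.15, -1.02 to 3.80 and -2.67 to 2.02. The values of -4.06, -3.81, 4.15 and 3.80 came without GAL replicate 3. Gbp4 and Ifit2 then had 0 counts in GAL, so these values depend on the prior count. Without both replicates 3 of CTL and GAL, an alternative added after the data were seen, Mx1 reached 1.02 in GAL versus CTL and -0.93 in the interaction, while Gbp4 and Ifit2 were fitted at -2.34 each and at 2.43 and 2.33, values that rest on 1 count in CTL and 0 in GAL and depend on the prior count. In CTK2+GAL versus CTK-2 Ifit2 ran from -0.09 to 0.04 with 1 library left out and was 0.00 without a filter on low counts. Fits of CTL and GAL alone gave no value for Gbp4 and Ifit2, which fell under the count minimum. The low counts in libraries without cytokines limit every fold, and the cytokine comparisons share no library with each other.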
